A study of Mus musculus with 16 samples.

Results

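Bile acid handling in mouse liver was followed through 34 genes of bile acid synthesis, transport and sensing. The members were matched by symbol in the deposited tables of estimated counts and of TPM (length-normalised transcript abundance), and each of the 34 symbols stood on 1 of the 55487 rows. By role, 10 members act in synthesis, 2 in conjugation, 4 in uptake from the blood, 7 in export or membrane composition at the canaliculus, 5 in export back to the blood, and 6 are receptors or regulators. The filter on low counts kept 33 of them, and Slc51b, below 1 CPM (the count scaled to the library total) in every library, was not tested.

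The livers came from mice on a high-fat diet (HFD), strain C57/Bl6J, and RNA was measured by polyA RNA-seq with paired reads of 150 bases. All 16 libraries, controls included, carry the same labelled genotype, J1 J2 lf/lf, and the series text describes hepatocyte-specific spliceoforms of JNK, a stress-activated kinase. The 5 GFP libraries are the controls, the 5 Cre libraries are named for the 7a forms (LJ1J27a), and the 6 Flpo libraries for the 7b forms (LJ1J27b). Cre and Flpo are site-specific DNA recombinases, and GFP is a fluorescent protein with no such activity. How the recombinases were delivered, which promoter drove them, how long the diet lasted, and the age and sex of the mice were not given in the sources used here. The labels do not say that each library came from a separate mouse, so a p-value here reflects the spread from library to library. Title numbers fall into a separate block for each group, so a batch and the group cannot be told apart.

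Hepatocytes turn cholesterol into bile acids by a classical route, opened by Cyp7a1, and an alternative route, opened by Cyp27a1. The products are joined to taurine or glycine, pumped into bile at the canalicular membrane, reabsorbed in the gut and taken up again at the sinusoidal membrane. Bile acids bind the nuclear receptor FXR, encoded by Nr1h4, which induces the repressor SHP (Nr0b2) and, in the ileum, the hormone FGF15, and both lower the transcription of Cyp7a1. Liver X receptor (Nr1h3) responds to oxysterols, and the receptor pair Fgfr4 and Klb receives FGF15 on hepatocytes.

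Promoter sequences of RefSeq (GRCm38.p6) were matched for 26 of the 34 members. Printed here are the 250 bases before the annotated start of 4 members that differed in at least 1 comparison: Akr1d1, a synthetic enzyme, Slco1b2 and Slco1a4, which are uptake transporters, and Abcb4, a canalicular phospholipid transporter. They lie at chr6:37529923-37530172 (plus strand), chr6:141629268-141629517 (plus), chr6:141856221-141856470 (minus) and chr5:8893471-8893720 (plus). The fifth sequence is the 109 bases at chr17:84683012-84683120, printed on the plus strand, between the RefSeq starts of Abcg5 and Abcg8, whose products form 1 sterol exporter and whose levels are compared library by library at the end. Each sequence runs 5′ to 3′ on the strand named, and capitals mark a match to a searched motif.
Akr1d1: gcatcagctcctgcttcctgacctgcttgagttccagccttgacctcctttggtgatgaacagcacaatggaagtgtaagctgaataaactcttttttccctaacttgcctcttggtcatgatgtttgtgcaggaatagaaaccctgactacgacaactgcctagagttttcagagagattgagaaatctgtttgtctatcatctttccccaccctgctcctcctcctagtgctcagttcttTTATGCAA
Slco1b2: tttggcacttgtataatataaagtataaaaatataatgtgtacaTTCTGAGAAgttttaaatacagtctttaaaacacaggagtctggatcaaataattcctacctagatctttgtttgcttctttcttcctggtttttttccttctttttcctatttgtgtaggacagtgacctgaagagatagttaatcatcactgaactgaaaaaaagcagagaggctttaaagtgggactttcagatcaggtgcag
Slco1a4: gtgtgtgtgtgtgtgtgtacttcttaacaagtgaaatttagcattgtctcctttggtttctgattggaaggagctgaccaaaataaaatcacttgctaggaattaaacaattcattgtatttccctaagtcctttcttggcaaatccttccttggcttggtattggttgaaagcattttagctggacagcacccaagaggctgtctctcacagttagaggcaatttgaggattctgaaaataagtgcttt
Abcb4: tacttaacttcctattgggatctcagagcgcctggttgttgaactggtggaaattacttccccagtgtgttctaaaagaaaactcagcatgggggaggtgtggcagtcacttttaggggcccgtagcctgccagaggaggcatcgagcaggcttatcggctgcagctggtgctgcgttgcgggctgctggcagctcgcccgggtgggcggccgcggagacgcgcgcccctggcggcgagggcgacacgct
Abcg5 to Abcg8: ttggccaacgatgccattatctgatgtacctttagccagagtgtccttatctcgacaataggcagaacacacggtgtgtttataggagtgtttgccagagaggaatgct
Motifs were searched on both strands of the 250 bases before the start. The capitals of Akr1d1 are TTATGNAA, the core of the D-box bound by clock output factors, 8 bases before the start. That motif occurred in 3.07% of the 32851 promoters of the table, and among members also before Cyp27a1. The capitals of Slco1b2 are TTCNNNGAA, the core bound by STAT factors, 206 bases before the start, which 7.02% of all promoters and 6 of the 26 members held. The 26 members had 34 promoters, and a member was counted when any of its promoters matched. Counts of members and shares of all promoters are therefore not on the same basis. CAAAGTCCA, an HNF4 core, occurred in 0.384% of all promoters and before 2 members, Cyp8b1 and Cyp2c70. The E-box CACGTG occurred in 6.02% of all promoters and before Nr0b2, Abcc4 and Slc51a, with 3 copies in Slc51a. The FXR core GGTCANTGA (0.731% of all promoters), the direct repeat core GGTCANAGG (1.43%) and the LRH-1 core CAAGGTCA (1.33%) matched none of the 26 members in these windows. Not searched were Cyp7a1, Cyp39a1, Amacr, Slc27a5, Baat, Abcc3, Abcc6 and Atp8b1. For Abcb1a, Nr1h4, Nr1h3 and Scp2 the RefSeq start, and so the window searched, lay kilobases away from the GENCODE start of the gene span. A match is a description of letters and was not tied to any difference below.

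Libraries held between 27929393 and 36043322 counts and between 17067 and 18257 genes with any count. The 34 members together held 5203 to 7079 TPM per library. On the TPM scale, which divides by gene length and so allows genes to be compared, mean GFP levels of members spanned from 0.193 TPM for Slc51a to 2684 TPM for Scp2. The next most abundant after Scp2 were Slc27a5, Cyp8b1, Slc10a1, Slco1b2 and Hsd3b7, with mean levels of 471, 463, 429, 421 and 392 TPM in GFP. The spread of Slc27a5, Cyp8b1, Slc10a1, Slco1b2 and Hsd3b7 over the GFP libraries overlapped, so their order is not resolved. The 4 scarcest members were Slc51b, Abcb1a, Abcc4 and Slc51a, with mean GFP levels of 1.28, 1.16, 0.302 and 0.193 TPM. Hepatocyte markers were abundant in every library: Alb, Ttr, Apoa1, Serpina1c and Tat summed to at least 73867 CPM.

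**Figure D1:**
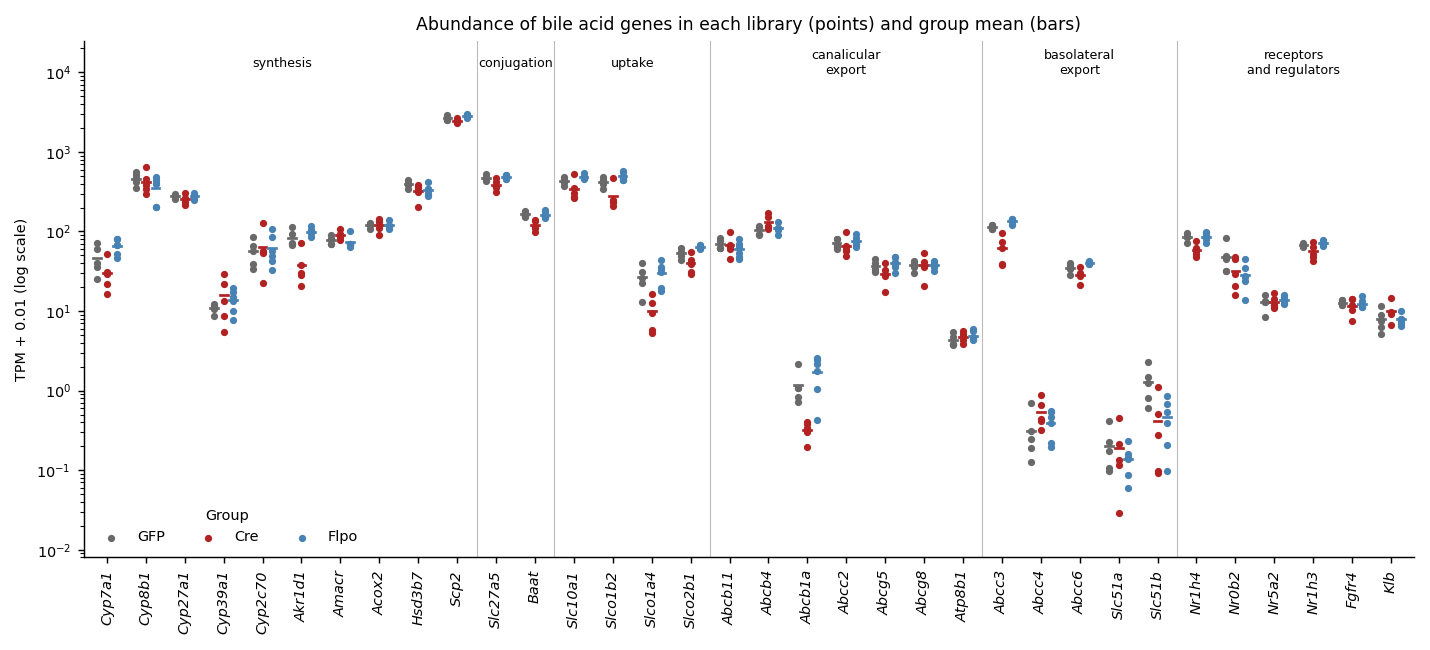
Abundance of the 34 members in every library, in TPM plus 0.01 on a log scale, grouped by role along the x axis. Points are libraries (5 GFP, 5 Cre, 6 Flpo) and bars are group means, and members span from about Slc51a at 0.193 TPM to Scp2 at 2684 TPM in GFP.

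Groups were compared with edgeR's quasi-likelihood test on counts, and a gene was called at an adjusted p under 0.05 over all 13905 genes tested. CPM values below are scaled with TMM factors, and means are given ± SD over 5 GFP, 5 Cre and 6 Flpo libraries. In Cre against GFP, 2 of 33 members were higher (Amacr and Abcb4) and 5 were lower (Akr1d1, Slco1a4, Abcb1a, Abcc3 and Nr1h4). Over all genes of that comparison, 9.55% were called, 3.97% higher and 5.58% lower. The median log2 fold change of the members was 0.025, beside 0.0014 for all genes. In Flpo against GFP, no member was called by edgeR's quasi-likelihood test, and 2 had an unadjusted p under 0.05. Over all genes, 0.0288% were called there, 0% higher and 0.0288% lower. The smallest adjusted p of a member was 0.470, DESeq2 also called 0 members, and the median log2 fold change was 0.063, beside -0.0055 for all genes. In Flpo against Cre, 8 members were higher (Cyp7a1, Akr1d1, Slco1b2, Slco1a4, Slco2b1, Abcb1a, Abcc3 and Nr1h4) and 3 were lower (Amacr, Abcb4 and Klb). Over all genes, 13.7% were called, 7.45% higher and 6.26% lower, and the median log2 fold change was -0.068 for members and -0.0050 for all genes. The comparisons share their libraries pairwise, the Cre libraries in the first and the last, so their lists are not independent.

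The split between higher and lower depended on scaling. With library totals in place of TMM factors, the all-gene median of log2 fold changes moved to -0.14 in Cre against GFP and to 0.13 in Flpo against Cre. Called members were then 1 higher and 8 lower in Cre against GFP, and 13 higher and 2 lower in Flpo against Cre. Over all genes that scaling called 14.1% (300 higher and 1656 lower) and 16.3% (1810 higher and 454 lower), so the split of all genes leaned the same way. On log2(TPM + 1), whose medians were -0.15 and 0.17, they were 0 higher and 9 lower, and 14 higher and 0 lower. Of all genes 18.5% (188 higher and 1909 lower) and 23.7% (2408 higher and 281 lower) were called on that scale. The changes below are relative to the median of all genes under TMM scaling. The calls of Amacr and Abcb4 in both comparisons, and that of Klb, were lost on log2(TPM + 1), and those of Amacr in Cre against GFP and of Klb also with library totals.

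**Figure D2:**
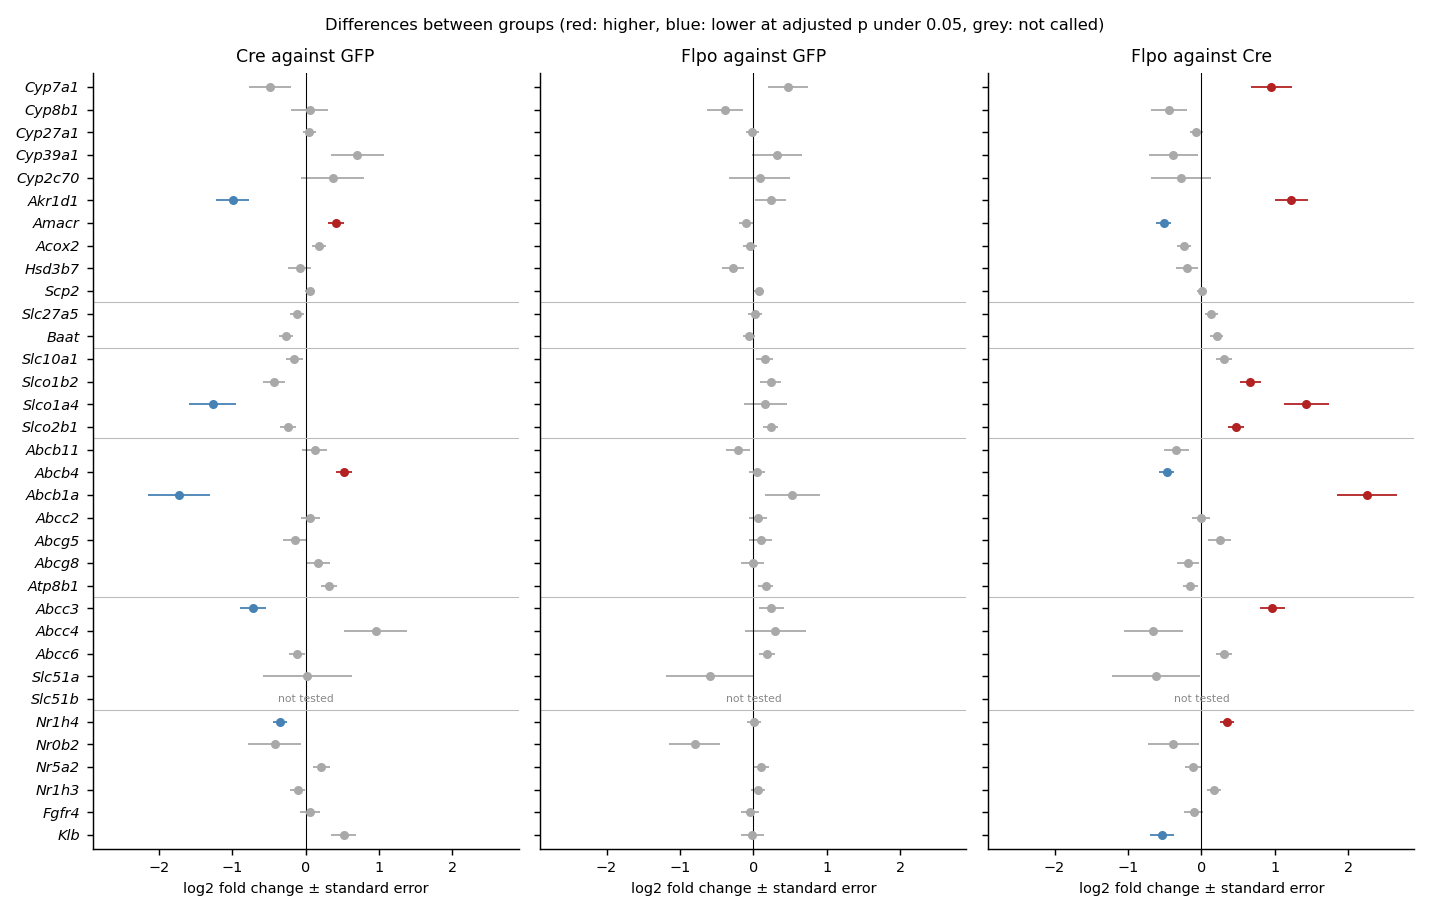
Log2 fold change ± standard error of every member in the 3 comparisons, in the order of roles used in the text. Red marks the calls that were higher and blue those that were lower, 7, 0 and 11 from the left panel to the right; grey values were not called and Slc51b was not tested.

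Other transcripts moved with these groups, and their part in the results for bile acid genes was not tested. A clock gene score (the mean z value of Arntl, Npas2, Clock and Nfil3 minus that of 8 opposite-phase genes) ran from -0.93 to 0.96 in GFP, from -0.085 to 2.52 in Cre and from -2.23 to -0.61 in Flpo. The 8 opposite-phase genes did not all move together. In Flpo against Cre 6 of them were higher and 1 lower, and in Cre against GFP 0 were higher and 3 lower. Nr1d1, 1 of the 8, stood at 97.6 to 134 CPM in Cre and at 29.8 to 90.3 CPM in Flpo. Cre replicate 4 had the lowest score of the Cre libraries, inside the GFP range. With the score as a covariate, no member was called in any comparison by edgeR's quasi-likelihood test. All Flpo scores lay below all Cre scores, so this fit can hardly tell the group from the score. For Abcb4 in Flpo against Cre the SE was 0.20 with the score, beside 0.11 without it. Over all genes that fit called 203 for Cre against GFP, 0 for Flpo against GFP and 11 for Flpo against Cre. Some log2 fold changes stayed close to those without the score: in Cre against GFP, Slco1a4 stood at -1.09 (SE 0.39) beside -1.27, and Amacr at 0.34 (SE 0.14) beside 0.41. Others shrank: in Flpo against Cre, Slco1b2 stood at 0.24 (SE 0.23) beside 0.66, Slco2b1 at 0.13 (SE 0.19) beside 0.48, and Nr1h4 at 0.060 (SE 0.17) beside 0.35. Male-biased liver genes were higher in Cre: 8 of 9 were called against GFP, and their sum was 3623 to 7528 CPM over GFP libraries, 17056 to 32255 over Cre and 3998 to 14183 over Flpo. Of 6 female-biased genes tested, Cyp2b9 and Cyp2b13 were lower in Cre than in GFP, and the sum of all 11 listed was 82.8 to 360.3, 1.18 to 18.6 and 50.8 to 400.5 CPM in the same order of groups. Cyp3a16 of that list was at 0 in every library.

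Markers of non-hepatocyte cells were also read. Of 8 stellate cell markers, 4 were lower in Cre than in GFP (Col1a1, Col1a2, Col3a1 and Lrat), 5 were higher in Flpo than in Cre, and their sum was 188 to 295 CPM over GFP libraries, 123 to 217 over Cre and 219 to 329 over Flpo. Of 6 bile duct cell markers, 5 were tested and Sox9 was higher in Cre than in GFP. Sox9 was lower (log2 fold change -1.68) and Spp1 higher (0.71) in Flpo than in Cre. The sum of the 6 was 39.8 to 47.9, 36.3 to 58.8 and 34.2 to 79.0 CPM, and Cftr was below 1 CPM in every library. No Kupffer cell marker of 6 was called in any comparison, with sums of 70.1 to 132, 75.0 to 128 and 67.9 to 204 CPM. Of 6 endothelial markers, Kdr was higher in Cre than in GFP and lower in Flpo than in Cre, and no lymphocyte marker was called. Among hepatocyte markers, Apoa1 was higher and Ttr lower in Cre than in GFP, and Apoa1 was lower in Flpo than in Cre. In bulk liver RNA, fewer cells of a type and less RNA per cell cannot be told apart.

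Synthesis was the role with the most members, and 2 of its 10 genes were called in Cre against GFP and 3 in Flpo against Cre. Over all genes 9.55% and 13.7% were called in these comparisons, and whether any role differs from all genes was not tested. Cyp7a1, the rate-limiting enzyme of the classical route, lies at chr4:6265612-6275633 (GRCm38, minus strand). It stood at 121, 112, 85.6, 183 and 240.0 CPM in the GFP libraries and at 105, 59.9, 123, 163 and 79.8 CPM in the Cre libraries. In the 6 Flpo libraries it ranged from 136 to 258 CPM with a median of 216. Flpo libraries were mostly the highest and Cre libraries mostly the lowest, but all 3 groups overlapped. The means were 148 ± 62.4, 106 ± 39.7 and 205 ± 48.3 CPM in GFP, Cre and Flpo. Cyp7a1 was 1.94-fold higher in Flpo than in Cre (log2 fold change 0.95, SE 0.28, adjusted p = 0.0335). Against GFP neither group passed, with log2 fold changes of -0.48 in Cre and 0.47 in Flpo. The call in Flpo against Cre was lost in 8 of 16 fits that left out 1 library (Cre replicates 1, 2, 3 and 5 and Flpo replicates 1, 2, 3 and 5; adjusted p from 0.0510 to 0.0826), and with the clock score the log2 fold change was 0.012 with an SE of 0.44.

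Akr1d1, the reductase that bends the steroid ring system, had the largest called difference of this role in both comparisons. It lies at chr6:37530173-37568815 on the plus strand. Its level was 173, 136, 149, 126 and 239 CPM in GFP and 85.6, 69.4, 71.5, 141 and 46.6 CPM in Cre. Flpo libraries ranged from 162 to 214 CPM with a median of 198. All 6 Flpo libraries lay above all 5 Cre libraries, while 1 Cre library, replicate 4, reached into the GFP range. Akr1d1 was lower in Cre than in GFP (log2 fold change -0.99, SE 0.23, adjusted p = 0.0115) and 2.34-fold higher in Flpo than in Cre (log2 fold change 1.22, SE 0.22, adjusted p = 0.00155). Both calls held in all 16 fits that left out 1 library. With the clock score as a covariate the log2 fold changes were -0.59 and 0.41, neither called.

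Amacr, a racemase that prepares the side chain for shortening in peroxisomes, lies at chr15:10981756-10996626 on the plus strand and moved the opposite way. It stood at 157, 145, 138, 139 and 133 CPM in GFP and at 181, 199, 207, 196 and 167 CPM in Cre, so that every Cre library lay above every GFP library. Flpo libraries ranged from 110.1 to 179 CPM with a median of 127, and 1 of them, replicate 1, lay inside the Cre range. The log2 fold change was 0.41 in Cre against GFP (SE 0.11, adjusted p = 0.0231) and -0.51 in Flpo against Cre (SE 0.10, adjusted p = 0.00307). The first call was lost without GFP replicate 5, Cre replicate 2 or Cre replicate 3 (adjusted p = 0.0575, 0.0505 and 0.0565). On log2(TPM + 1) the differences were 0.22 (adjusted p = 0.207 in limma) and -0.31 (adjusted p = 0.056).

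Cyp8b1, the sterol hydroxylase that sets the share of cholic acid, was not called in any comparison. It stood at 699.8, 818, 551, 653 and 635 CPM in GFP and at 632, 492, 622, 660.2 and 1077 CPM in Cre, and ranged from 275 to 723 CPM with a median of 579 in Flpo. The highest value was Cre replicate 5 and the lowest 2 were Flpo libraries, and the groups overlapped. Against GFP its log2 fold change was 0.053 (SE 0.25) for Cre and -0.39 (SE 0.24) for Flpo, and Flpo against Cre gave -0.44 (SE 0.24).

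None of the other 6 synthesis genes was called. Scp2, a sterol carrier and peroxisomal thiolase, was the most even, with coefficients of variation within groups of 1.20%, 4.26% and 2.97% of its CPM in GFP, Cre and Flpo. Cyp27a1, which opens the alternative route, had means of 371 ± 29.3, 385 ± 31.5 and 367 ± 32.1 CPM in the same order. Hsd3b7, the dehydrogenase that acts after Cyp7a1, had means of 492 ± 42.7, 464 ± 113 and 404 ± 65.8 CPM, and Acox2, the peroxisomal oxidase of the side chain, 214 ± 20.4, 244 ± 35.9 and 207 ± 13.7 CPM. Acox2 had a log2 fold change of -0.24 in Flpo against Cre (adjusted p = 0.114), which passed without Cre replicate 3 (adjusted p = 0.0454). Cyp2c70, which makes muricholic acids in mice, and Cyp39a1, an oxysterol hydroxylase, were the most variable: within Cre their coefficients of variation were 69.6% and 63.4%. In Cre, Cyp2c70 ran from 26.6 to 167 CPM and Cyp39a1 from 12.3 to 60.4 CPM.

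The 2 conjugation genes were not called. Slc27a5, the ligase that activates bile acids with coenzyme A, had means of 775 ± 87.0, 716 ± 79.1 and 786 ± 35.5 CPM in the order GFP, Cre, Flpo. Baat, which transfers them to taurine or glycine, had means of 233 ± 22.4, 193 ± 22.1 and 223 ± 13.9 CPM. Its log2 fold change in Cre against GFP was -0.27 (SE 0.091, adjusted p = 0.0713), and this passed without Cre replicate 1 (adjusted p = 0.0341), in DESeq2, with library totals and on the TPM scale. Baat and Slc27a5 passed in Flpo against Cre with library totals (adjusted p = 0.0101 and 0.0477) and on log2(TPM + 1) (adjusted p = 0.00432 and 0.0138 in limma), and not with TMM scaling (adjusted p = 0.129 and 0.37).

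The 4 uptake transporters had log2 fold changes of the same sign within each comparison. They were all negative in Cre against GFP, with 1 of 4 called and a median of -0.34. In Flpo against Cre all were positive, with 3 of 4 called and a median of 0.57, and in Flpo against GFP all were positive, with 0 called and a median of 0.20. As the comparisons share libraries, these counts are not independent of each other. Over all genes 9.55% were called in Cre against GFP, 13.7% in Flpo against Cre and 0.0288% in Flpo against GFP. Slco1a1, an uptake transporter outside the members, went the other way in Cre against GFP. It stood at 16.1 to 75.5 CPM in GFP and at 229 to 459 CPM in Cre.

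Slco1a4 and Slco1b2 encode organic anion transporters of the sinusoidal membrane that also carry bile acids. Slco1a4 lies at chr6:141805440-141856199 (GRCm38, minus strand) and stood at 76.5, 45.6, 27.6, 49.4 and 65.5 CPM in GFP and 21.6, 12.2, 14.5, 32.1 and 29.5 CPM in Cre. Flpo libraries ranged from 34.6 to 81.8 CPM with a median of 63.5, all of them above all Cre libraries. GFP replicate 3 fell inside the Cre range. The log2 fold change was -1.27 in Cre against GFP (SE 0.32, adjusted p = 0.0194), which was lost without GFP replicate 1 (-1.08, adjusted p = 0.0521). In Flpo against Cre it was 1.43 (SE 0.31, adjusted p = 0.00578), and with the clock score as a covariate 1.06 (SE 0.58), not called. Slco1 genes resemble each other in sequence, so reads shared between them may have been split and the single members are uncertain.

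Slco1b2, at chr6:141629518-141686646 on the plus strand, is separated from Slco1a4 by 1 annotated coding gene. It stood at 1173, 999, 935, 1047 and 1196 CPM in GFP and 609, 691, 805, 1174 and 688 CPM in Cre, and ranged from 1116 to 1398 CPM with a median of 1268 in Flpo. Of the Cre libraries 4 lay below all others, and replicate 4 lay among GFP and Flpo libraries. Slco1b2 was 1.59-fold higher in Flpo than in Cre (log2 fold change 0.66, SE 0.14, adjusted p = 0.00414). Its log2 fold change in Cre against GFP was -0.43 (SE 0.15, adjusted p = 0.0701), and without Cre replicate 4 it was -0.62 and passed (adjusted p = 0.00157). With all libraries it also passed in DESeq2, in limma-voom, with library totals (-0.57, adjusted p = 0.0201) and on log2(TPM + 1) (-0.65, adjusted p = 0.0149 in limma).

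Slco2b1, a further organic anion transporter, stood at 153, 129, 124, 139 and 153 CPM in GFP and 88.8, 119.7, 103, 144 and 134 CPM in Cre. In Flpo it ranged from 152 to 171 CPM with a median of 167, above every Cre library. The log2 fold change in Flpo against Cre was 0.48 (SE 0.11, adjusted p = 0.00663), and against GFP neither group passed (-0.24 in Cre and 0.23 in Flpo), though Cre against GFP did with library totals and on log2(TPM + 1) (adjusted p = 0.0414 and 0.0381). Slc10a1, the sodium-dependent transporter NTCP, stood at 548, 552, 478, 478 and 532 CPM in GFP and 415, 378, 407, 637 and 485 CPM in Cre, and at 551 to 637 CPM with a median of 563 in Flpo. It shared with Slco1b2 the pattern of 1 high Cre library, replicate 4, and the groups overlapped. Its log2 fold changes, -0.16 in Cre against GFP and 0.31 in Flpo against Cre, were not called (adjusted p = 0.449 and 0.0792). Without Cre replicate 4 they were -0.30 and 0.45 and passed (adjusted p = 0.0408 and 0.00188), and Flpo against Cre also passed with library totals and on log2(TPM + 1) (adjusted p = 0.0206 and 0.0111).

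**Figure D3:**
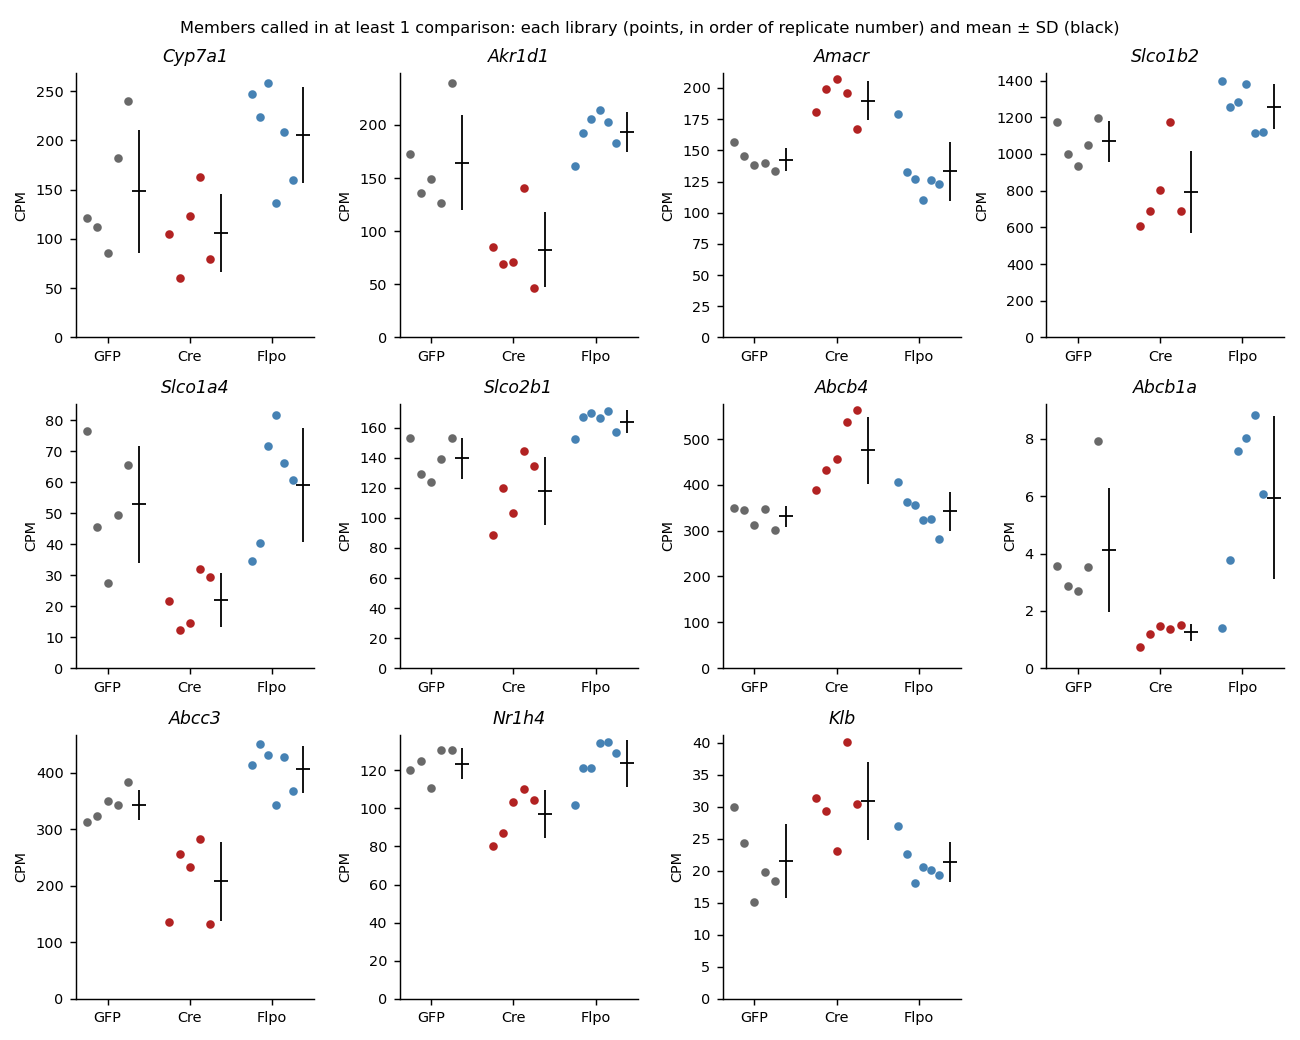
CPM of the 11 members called in at least 1 comparison, with 1 panel per gene and a y axis from 0. Points are libraries in order of replicate number within GFP, Cre and Flpo, and black marks are mean ± SD; in Akr1d1, Slco1a4, Slco2b1 and Abcc3 all 6 Flpo libraries lie above all 5 Cre libraries, and in Amacr and Abcb4 all Cre libraries lie above all GFP libraries.

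At the canaliculus, 2 of 7 members were called in Cre against GFP and in Flpo against Cre, beside 9.55% and 13.7% of all genes. In both cases they were Abcb4 and Abcb1a, and in each comparison their directions were opposite. Abcb4 moves phosphatidylcholine into bile, where it shields membranes from bile acids. It stood at 350.4, 346, 312, 347 and 302 CPM in GFP and 388, 433, 456, 536 and 563 CPM in Cre, and every Cre library was above every GFP library. Flpo libraries ranged from 282 to 406 CPM with a median of 339.9, and the highest of them, replicate 1, overlapped the lowest Cre library. Abcb4 was 1.43-fold higher in Cre than in GFP (log2 fold change 0.52, SE 0.11, adjusted p = 0.00674) and lower in Flpo than in Cre (log2 fold change -0.47, SE 0.11, adjusted p = 0.00624). Both calls held in all 16 fits that left out 1 library. With the clock score the log2 fold changes were 0.54 and -0.51, with no call (adjusted p = 0.0758 and 0.686). On log2(TPM + 1) they were 0.32 and -0.26 and were not called (adjusted p = 0.102 and 0.15 in limma), or 0.48 and -0.43 relative to the median of all genes.

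Abcb1a encodes a P-glycoprotein, a broad exporter of drugs, and was scarce in these livers. It stood at 3.58, 2.87, 2.68, 3.52 and 7.94 CPM in GFP and 0.751, 1.19, 1.45, 1.35 and 1.49 CPM in Cre, all Cre libraries below all GFP libraries. In Flpo it ranged from 1.41 to 8.82 CPM with a median of 6.83, and replicate 1, the lowest, fell in the Cre range. The log2 fold change was -1.72 in Cre against GFP (SE 0.42, adjusted p = 0.0156) and 2.25 in Flpo against Cre (SE 0.41, adjusted p = 0.00156). With the clock score as a covariate they were -0.99 and 0.89, neither called. The call in Cre against GFP was also lost in limma-voom and on log2(TPM + 1) without a filter. Abcb1a, Abcb1b and Abcb4 are 3 consecutive coding genes on the plus strand of chromosome 5, at chr5:8660077-8748575, chr5:8798147-8866315 and chr5:8893717-8959231 in GRCm38. Within that stretch Abcb1a and Abcb4 differed from GFP in opposite directions, and Abcb1b, the near copy of Abcb1a, was not called in Cre against GFP (log2 fold change 0.23, SE 0.63). In Flpo against Cre, Abcb1b was lower (log2 fold change -2.02, adjusted p = 0.0419) at means of 0.311 ± 0.177 and 1.28 ± 0.932 CPM. Reads that fit both Abcb1a and Abcb1b may have been split between them.

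Abcb11, the bile salt export pump and a target of FXR, was not called. It stood at 282, 248, 350.4, 232 and 257 CPM in GFP and 271, 293, 339.9, 381 and 207 CPM in Cre, and ranged from 177 to 313 CPM with a median of 239 in Flpo, with all groups overlapping. Its log2 fold changes were 0.12, -0.21 and -0.34 in Cre against GFP, Flpo against GFP and Flpo against Cre, with adjusted p of 0.711, 0.707 and 0.193. Abcc2, which exports conjugated anions, had means of 367 ± 51.0, 384 ± 76.9 and 382 ± 47.8 CPM in GFP, Cre and Flpo. Abcg5 had 64.7 ± 11.8, 58.3 ± 13.9 and 69.4 ± 9.74 CPM and its partner Abcg8 96.8 ± 15.3, 109 ± 28.6 and 96.1 ± 7.27 CPM. Atp8b1, a phospholipid flippase, had means of 23.8 ± 2.89, 29.8 ± 2.94 and 26.7 ± 3.02 CPM. Its log2 fold change of 0.32 in Cre against GFP (adjusted p = 0.0669) passed when GFP replicate 1 (adjusted p = 0.0283), Cre replicate 5 (0.0326) or Flpo replicate 1 (0.0441) was left out, and in DESeq2 with all libraries.

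Of the basolateral exporters, Abcc3 was called and the other 3 tested were not. Abcc3, at chr11:94343295-94392997 on the minus strand, carries glucuronides and bile acids back to the blood. It stood at 313, 324, 351, 344 and 383 CPM in GFP and 136, 256, 234, 283 and 132 CPM in Cre, and ranged from 343 to 452 CPM with a median of 421 in Flpo. All Cre libraries were below all GFP and all Flpo libraries, and GFP and Flpo overlapped. Abcc3 was lower in Cre than in GFP (log2 fold change -0.72, SE 0.18, adjusted p = 0.0157) and 1.95-fold higher in Flpo than in Cre (log2 fold change 0.96, SE 0.17, adjusted p = 0.00123). The first call was lost when the fit held only the 2 groups compared, and both were lost with the clock score, at -0.39 and 0.29.

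Abcc6, a hepatocyte transporter best known for limiting tissue calcification, had means of 129 ± 19.3, 119 ± 17.1 and 147 ± 7.70 CPM in GFP, Cre and Flpo. All Flpo libraries were above all Cre libraries, but its log2 fold change of 0.30 was not called (adjusted p = 0.0701). It passed with library totals (0.43, adjusted p = 0.00994) and on log2(TPM + 1) (0.51, adjusted p = 0.00318 in limma). Abcc4, an exporter related to Abcc3, had means of 1.24 ± 0.967, 2.41 ± 0.829 and 1.54 ± 0.614 CPM. Its log2 fold change in Cre against GFP was 0.95 (SE 0.43, adjusted p = 0.18), and without GFP replicate 5 it was 1.54 and passed (adjusted p = 0.0235). Slc51a and Slc51b form the heteromeric transporter OST and were close to the limit of detection. Slc51a ran from 0.0358 to 1.01 CPM over all 16 libraries and was not called, and Slc51b ran from 0.0301 to 0.761 CPM.

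Of the 6 receptors and regulators, 1 was called in Cre against GFP and 2 in Flpo against Cre, beside 9.55% and 13.7% of all genes. Nr1h4, the bile acid receptor FXR, lies at chr10:89454234-89533585 on the minus strand. It stood at 120.4, 125, 111, 131 and 130.4 CPM in GFP and 80.0, 87.0, 104, 110.0 and 104 CPM in Cre, every Cre library below every GFP library. Flpo libraries ranged from 102 to 135 CPM with a median of 125, and the lowest, replicate 1, fell in the Cre range. Nr1h4 was lower in Cre than in GFP (log2 fold change -0.35, SE 0.099, adjusted p = 0.0334) and higher in Flpo than in Cre (log2 fold change 0.35, SE 0.095, adjusted p = 0.0198). The first call was lost without any 1 of GFP replicates 1, 2, 4 and 5, Cre replicates 1 and 2 and Flpo replicate 3 (adjusted p from 0.0503 to 0.0860). The second was lost without Cre replicate 1 or 2 or Flpo replicate 4, 5 or 6 (adjusted p from 0.0514 to 0.0584). Both were also lost when the fit held only the 2 groups compared, and with the clock score. The first was lost without the low-count filter too.

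Nr0b2, the repressor SHP and a target of FXR, varied widely inside every group. It stood at 32.9, 32.0, 62.4, 21.3 and 23.4 CPM in GFP and 38.4, 36.3, 26.4, 14.5 and 12.9 CPM in Cre, and ranged from 10.03 to 31.2 CPM with a median of 19.1 in Flpo. GFP replicate 3 was the highest of all libraries, and the groups overlapped. Its log2 fold changes were -0.42 (SE 0.36) in Cre and -0.80 (SE 0.34) in Flpo against GFP, with adjusted p of 0.52 and 0.47. The coefficient of variation was 47.8%, 46.1% and 35.7% in GFP, Cre and Flpo, beside 6.74%, 13.2% and 9.91% for Nr1h4.

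Klb, the co-receptor for FGF15, stood at 30.0, 24.4, 15.1, 19.8 and 18.4 CPM in GFP and 31.3, 29.4, 23.1, 40.1 and 30.5 CPM in Cre. In Flpo it ranged from 18.2 to 27.0 CPM with a median of 20.4, and 3 of the 5 Cre libraries, replicates 1, 4 and 5, lay above every GFP and Flpo library. Klb was lower in Flpo than in Cre (log2 fold change -0.53, SE 0.16, adjusted p = 0.0359). That call was lost without any 1 of Cre replicates 1, 2, 4 and 5 and Flpo replicates 3 to 6 (adjusted p from 0.0547 to 0.0895). In Cre against GFP the log2 fold change was 0.52 (adjusted p = 0.0634), which passed when GFP replicate 1 (adjusted p = 0.0176), Cre replicate 3 (0.0374) or Flpo replicate 1 (0.0478) was left out, and in DESeq2 with all libraries. Its partner Fgfr4 had means of 33.2 ± 1.29, 34.6 ± 7.50 and 32.1 ± 4.21 CPM and was not called. Nr5a2, the activator LRH-1, had 45.7 ± 8.17, 53.0 ± 5.82 and 49.1 ± 3.99 CPM, and Nr1h3, the oxysterol receptor, 86.8 ± 8.41, 80.5 ± 12.1 and 90.7 ± 4.60 CPM, and neither was called. Nr1h3 passed in Flpo against Cre with library totals and on log2(TPM + 1) (adjusted p = 0.0401 and 0.0191).

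Synthesis and canalicular export held calls in both directions in each comparison with Cre, and receptors in Flpo against Cre. A role with 1 call, such as basolateral export in each of these comparisons, could show only 1 direction. The 4 basolateral members tested had 2 positive and 2 negative log2 fold changes in Cre against GFP and in Flpo against Cre. Called in Cre against GFP were 1 higher and 1 lower member in synthesis, 1 lower in uptake, 1 higher and 1 lower at the canaliculus, 1 lower in basolateral export and 1 lower among receptors. In Flpo against Cre they were 2 higher and 1 lower in synthesis, 3 higher in uptake, 1 higher and 1 lower at the canaliculus, 1 higher in basolateral export and 1 higher and 1 lower among receptors. The median log2 fold change in Flpo against Cre was -0.22 in synthesis, 0.57 in uptake, -0.15 at the canaliculus, -0.16 in basolateral export and -0.11 among receptors. Members whose libraries did not overlap numbered 2 higher and 3 lower for Cre against GFP, where 8.2% of all genes did not overlap. There were 0 for Flpo against GFP (1.55% of all genes) and 5, all higher, for Flpo against Cre (7.84%). Over all genes without overlap, 629 were higher and 461 lower in Flpo against Cre, and 495 higher and 645 lower in Cre against GFP.

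A wider list of 38 genes of the pathway was read beside the members, of which 32 were tested. Against GFP, 4 were higher and 2 lower in Cre, and 0 were called in Flpo, with 2 at an unadjusted p under 0.05. Flpo against Cre had 6 higher and 6 lower. The shares of all genes called were 9.55% (Cre, with GFP as reference), 0.0288% (Flpo, with GFP as reference) and 13.7% (Flpo, with Cre as reference). Cyp7b1, the oxysterol hydroxylase of the alternative route and also on the list of male-biased genes, had means of 101 ± 21.5, 461 ± 149.7 and 83.1 ± 32.3 CPM in the order GFP, Cre, Flpo. Every Cre library was above every other library, at a log2 fold change of 2.19 against GFP (SE 0.27, adjusted p = 0.000117), and Flpo against Cre was -2.47 (SE 0.25, adjusted p = 1.92e-05). Slco1a1, an uptake transporter of the same cluster as Slco1b2 and Slco1a4 and likewise male-biased, was 8.35-fold higher in Cre than in GFP (adjusted p = 0.011), opposite in sign to its neighbour Slco1a4. The means of Slco1a1 were 43.2 ± 24.1, 361 ± 96.6 and 104 ± 90.9 CPM.

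Other genes of that list with a higher level in Cre than in GFP were Abcg2, a canalicular exporter (log2 fold change 0.56), and the growth factor receptor Fgfr1 (1.49). Lower in Cre were Cyp46a1, a cholesterol hydroxylase (-1.87), and Cyp2b10, a detoxifying enzyme induced through the receptor CAR (-2.42), the latter at means of 1.58 ± 1.23 and 0.289 ± 0.122 CPM in GFP and Cre. In Flpo against Cre, the receptors PXR (Nr1i2, log2 fold change 0.40) and CAR (Nr1i3, 0.80), the glucuronosyltransferase Ugt1a1 (0.39), Cyp2b10 (2.68), Cyp46a1 (1.97) and the sodium-dependent transporter Slc10a2 (1.04) were higher. Lower there were Cyp7b1, Abcg2 (-0.55), Fgfr1 (-1.07), Abcb1b, the acyl-CoA ligase Slc27a2 (-0.36) and Tmem30a (-0.30), the partner subunit of Atp8b1. The ileal hormone Fgf15 and Nr0b1 were listed at 0 in every library, as was Fabp6, which encodes the ileal bile acid binding protein and was read as an ileal marker, and the bile acid receptor Gpbar1 and Vdr were below 1 CPM in every library.

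**Figure D4:**
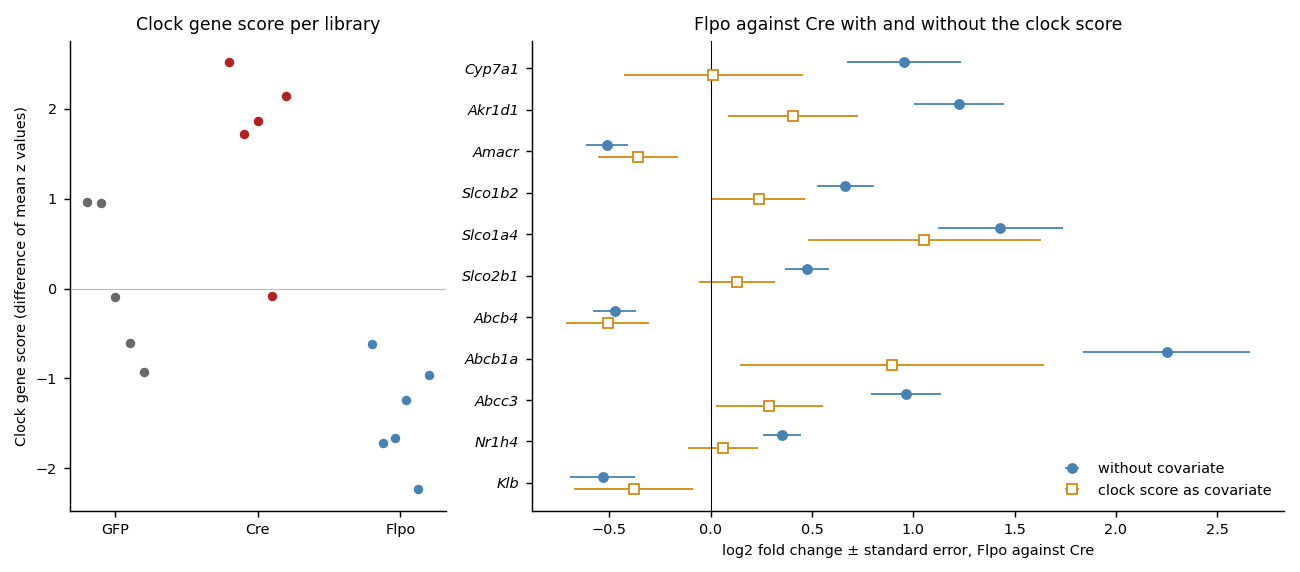
Left, the clock gene score (difference of mean z values) of every library by group; right, the log2 fold change ± standard error in Flpo against Cre of the 11 called members, without (filled circles) and with (open squares) the score as a covariate. All Flpo scores lie below all Cre scores, and with the covariate no member was called. Abcb4 and Slco1a4 then stood at -0.51 and 1.06, and Slco2b1 and Nr1h4 at 0.13 and 0.060.

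Relations between members were read library by library, as deviations of log2 CPM from the group mean over 16 libraries, with 6 pairs tested by permuting libraries within groups. Abcg5 and Abcg8, which need each other to reach the membrane, rose and fell together: Pearson's r was 0.89 (permutation p = 0.00031, adjusted p = 0.00186) and Spearman's rho 0.83 (permutation p = 0.00046, adjusted p = 0.00276). Without the 2 libraries farthest from the median of Abcg5, GFP replicate 5 and Cre replicate 5, r was 0.65 (permutation p = 0.0125), and within the 6 Flpo libraries it was 0.66. The sign was positive in GFP and in Cre. The annotated spans of both genes, chr17:84658234-84683011 on the minus and chr17:84676302-84700333 on the plus strand, overlap, and the use of strand in counting was not given in the sources used here, so shared reads cannot be told apart from shared levels. RefSeq also gives Abcg8 a start outside Abcg5, and the 109 bases printed above end just before it.

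Pairs that follow the textbook feedback did not pass. Nr0b2 with Cyp7a1 gave r = -0.46 (permutation p = 0.112, adjusted p = 0.135) and rho = -0.37 (permutation p = 0.198, adjusted p = 0.237). Nr0b2 with Cyp8b1 gave r = -0.47 (permutation p = 0.0751, adjusted p = 0.133) and rho = -0.54 (permutation p = 0.0501, adjusted p = 0.142). Nr0b2 with Abcb11, both FXR targets, gave r = 0.48 (permutation p = 0.0890, adjusted p = 0.133) and rho = 0.51 (permutation p = 0.0709, adjusted p = 0.142). Without GFP replicate 3 and Flpo replicate 2, the libraries farthest from the median of Nr0b2, these r values were -0.31, -0.31 and 0.38. Cyp7a1 with Cyp8b1 gave r = 0.35 (permutation p = 0.148, adjusted p = 0.148) and rho = 0.31 (permutation p = 0.238, adjusted p = 0.238), and 0.19 without GFP replicate 3 and Cre replicate 2. The clock score with Cyp7a1 gave r = -0.53 (permutation p = 0.0707, adjusted p = 0.133) and rho = -0.46 (permutation p = 0.123, adjusted p = 0.184), and -0.14 without GFP replicate 5 and Cre replicate 4. Within Flpo the r values were -0.043, -0.37, 0.60, 0.89 and -0.18 in the order of these 5 pairs, and no group of 5 libraries was given its own r.

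**Figure D5:**
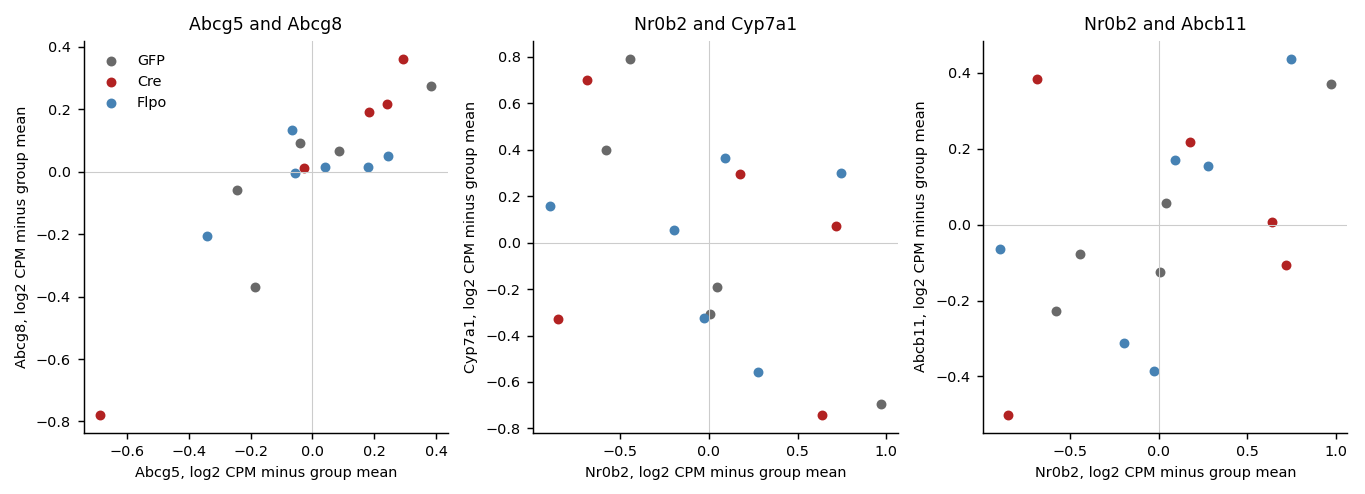
Deviations of log2 CPM from the group mean in each of 16 libraries for Abcg5 against Abcg8 (r = 0.89), Nr0b2 against Cyp7a1 (r = -0.46) and Nr0b2 against Abcb11 (r = 0.48), with points coloured by group. Abcg5 and Abcg8 lie along a diagonal, with Cre replicate 5 the lowest in both, while the other 2 panels are scattered.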

How the data were processed

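Liver RNA-seq of 16 libraries was read from 2 deposited tables, of estimated counts and of TPM per gene. The submitters' processing notes name cutadapt, STAR and mm10, without versions. Which program made the deposited estimated counts, with which annotation and strand setting, was not given in the sources used here. None of the deposited counts above 0 exactly equalled a whole number (no tolerance was allowed), and they were rounded for count models. Reads of near-identical genes may have been split. The authors' deposited values are in TPM, a scale that divides counts by gene length and then by the library's sum of the length-divided counts.

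Genes were filtered with filterByExpr (minimum count 10), scaled with TMM and tested in 1 quasi-likelihood fit of all libraries (edgeR 4.0.16, R 4.3.3), with Benjamini-Hochberg adjustment over 13905 genes. The fit was tested on simulated data. Alternatives were limma 3.58.1 (voom, and log2(TPM + 1) or log2(TPM + 0.1) of genes at 1 TPM in 5 libraries, or unfiltered), DESeq2 1.42.0, other scalings, no filter, a stricter threshold, only the 2 groups compared, a replicate block, the clock score and leaving out each library. Correlations used 100000 resamples. Gene spans are from GENCODE on GRCm38.

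The members, gene lists and motifs were chosen with earlier results of these data known. By the rule for named genes, every member is accounted for. Called members and Cyp7a1, Cyp8b1, Nr1h4, Nr0b2, Abcb11 and Slc10a1 are given in every library or by range, and called genes of the wider pathway list are named.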

Additional observations from a re-analysis of the deposited data

Results flagged for a closer look

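Values of the 34 members were checked for libraries that stand apart from the rest of their group, by the gap to the nearest library relative to the whole range of the group. Of 102 gene and group combinations, 7 (6.86%) held such a library, and chance gives about 1 in 20. Cyp8b1 was 1077 CPM in Cre replicate 5, above 492 to 660.2 CPM in the other Cre libraries. Cyp27a1 was 329 CPM in Cre replicate 2, below 390.0 to 406 CPM. Amacr was 179 CPM in Flpo replicate 1, above 110.1 to 133 CPM. Abcb1a was 7.94 CPM in GFP replicate 5, above 2.68 to 3.58 CPM, and Abcc4 was 2.92 CPM in the same library, above 0.487 to 1.14 CPM. Abcc6 was 88.8 CPM in Cre replicate 5, below 121 to 129 CPM. Nr0b2 was 62.4 CPM in GFP replicate 3, above 21.3 to 32.9 CPM. Without the library named, the call of Amacr in Flpo against Cre and that of Abcb1a in both comparisons with Cre held, and Abcc4 passed in Cre against GFP.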

How the results depend on the processing

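Called members numbered 7 for Cre against GFP, 0 for Flpo against GFP and 11 for Flpo against Cre. In Cre against GFP the count was 1 at an adjusted p under 0.01, 11 with DESeq2 and 0 with the clock gene score as a covariate, beside 3.42%, 13.3% and 1.46% of all genes, and in Flpo against Cre it was 0 with that covariate (0.0791% of all genes). The cause was not tested. Leaving out each library in turn gave 5 to 9 members for Cre against GFP, 0 for Flpo against GFP and 8 to 11 for Flpo against Cre. In the same fits r was -0.61 to -0.32 for Nr0b2 with Cyp7a1, -0.57 to -0.35 for Nr0b2 with Cyp8b1, 0.34 to 0.71 for Nr0b2 with Abcb11, 0.22 to 0.51 for Cyp7a1 with Cyp8b1, 0.76 to 0.91 for Abcg5 with Abcg8 and -0.62 to -0.37 for the clock score with Cyp7a1. With the replicate number as a block, in a fit without Flpo replicate 6, whose number no other group has, 9, 0 and 10 members were called. Atp8b1 and Klb passed in Cre against GFP and the call of Cyp7a1 was lost, beside 7, 0 and 9 calls without that library and with no block. Of 15 same-numbered pairs 1 had a correlation above 0.1 (range -0.156 to 0.117), and 3 of 15 libraries correlated best with their own number. The labels do not say what the number stands for, and these values do not settle whether same-numbered libraries share more. Over single members, 1537 of 1581 values without a library stayed on their side of the threshold, as did 1076 of 1172 under the other alternatives, and no called value changed sign. Among values not called, 15, 17 and 16 members changed sign in at least 1 setting in the 3 comparisons. Depth limits Slc51a, Slc51b, Abcc4 and Abcb1a, which rest on few reads.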
